A study of Homo sapiens with 14 samples.

Results

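RN7SL1, RN7SL2 and BCYRN1 are the genes of 7SL RNA and of BC200 RNA, and they were read here against sites of RNA polymerase III and of the progesterone receptor (PR) in T47D, a human breast tumour cell line with receptors for oestrogen and progesterone. The 3 genes were chosen by name, as the signal recognition particle RNA genes and the Alu-related gene among the short genes that RNA polymerase III transcribes, and they are 3 of the 58419 genes of the RefSeq table used. All cells were grown with serum and insulin and were then exposed for 1 h to progesterone (P4) or to its ethanol solvent, called vehicle here. Chromatin immunoprecipitation sequencing was done with antibodies to PR and to POLR3A, the catalytic core subunit of RNA polymerase III. There were 14 libraries, made of 3 per antibody and treatment and of 1 input, pooled, for each treatment. The deposited values are 4 lists of regions, 1 for each antibody and treatment, so no value per replicate exists here and nothing could be set against the spread between replicates. The lists hold no expression values, and the label of the cell line was not checked against marker genes.

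7SL RNA is the scaffold of the signal recognition particle, which binds signal peptides as they leave the ribosome and brings the ribosome to the endoplasmic reticulum. Alu elements descend from 7SL RNA, and BC200 RNA is a primate RNA with an Alu-like 5′ part, known from neurons and from tumour cells, where it binds factors that control translation. Genes of both kinds are transcribed from promoter elements inside the transcribed sequence together with sequence upstream of it. RN7SL1 and RN7SL2 are nearly identical copies, and RN7SL3 and many pseudogenes resemble them, so reads from inside one copy can fit another. How the aligner placed such reads is not given in the sources used here, and the values of RN7SL1, RN7SL2 and the other copies are therefore uncertain as a split between them.

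All positions are on GRCh38, 1-based. RN7SL1 is a 299-bp gene on chromosome 14 (49586580 to 49586878) within the span of RPS29, a gene of a protein of the small ribosomal subunit, and the next coding genes are LRR1, 12062 bp above it, and MDGA2, 1910975 bp below it. RN7SL2, also 299 bp long, lies 275.7 kb away on the same chromosome (49862551 to 49862849), within the span of the non-coding gene LOC105378179. Its nearest coding genes are NEMF, of ribosome quality control, 9763 bp below it and ARF6, of membrane traffic, 30233 bp above it. BCYRN1, 200 bp long, lies on chromosome 2 (47335315 to 47335514) within the span of the non-coding gene EPCAM-DT. EPCAM, the epithelial adhesion gene, is 33797 bp above it and CALM2, a calmodulin gene, 158379 bp below it. The gene table gives neither exons nor strand, so directions below are those of the genome coordinates. The promoter table used here has no entry for RN7SL1, RN7SL2 or BCYRN1.

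A gene was counted as having a region when a region reached the gene body or the 100 bp on either side of it. POLR3A regions were at all 3 genes under vehicle and at all 3 under P4. Over all genes of the table, 20.4% had a POLR3A region under vehicle and 23.5% under P4, and among the 2378 genes of 150 to 350 bp, a length closer to that of these genes, 4.04% and 4.71% had one. PR regions were at 2 of the 3 genes, RN7SL1 and RN7SL2, under each treatment. The shares over all genes were 20.7% under vehicle and 37.3% under P4, and over genes of 150 to 350 bp they were 2.82% and 6.35%. RN7SL1 and RN7SL2 were thus in all 4 lists, as were 10.5% of all genes and 1.72% of the genes of 150 to 350 bp. At BCYRN1 both POLR3A lists had a region and no PR list did.

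The fold enrichment and the −log10 q printed for a region are the authors' own values, and they are used to rank regions within 1 list, not to measure a change between lists. On chromosomes 1 to 22 and X the POLR3A lists hold 29161 regions under vehicle and 47904 under P4, and the PR lists 38933 and 111515. The median −log10 q of a region was 3.53 and 3.22 in the POLR3A lists and 5.75 and 4.87 in the PR lists. The depth of the libraries is unknown, and a difference in depth would change both the length of a list and its q-values.

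At RN7SL1, the POLR3A region had a −log10 q of 468.9 and a 50.8-fold enrichment under vehicle, and 499.3 and 64.0-fold under P4. It ranked 104th of its list under vehicle, at percentile 99.6, and 81st under P4, at percentile 99.8. At RN7SL2, the −log10 q was 405.5 with a 41.4-fold enrichment under vehicle, and 435.2 with 47.6-fold under P4. These regions ranked 135th (percentile 99.5) and 122nd (percentile 99.7). Both 7SL genes were thus in the top 1% of each POLR3A list, with RN7SL1 above RN7SL2 in both. BCYRN1 stood lower, with a −log10 q of 57.3 and a 16.4-fold enrichment under vehicle and 72.8 and 17.9-fold under P4. It ranked 380th, at percentile 98.7, and 307th, at percentile 99.4.

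The same order held among the short genes of RNA polymerase III. A list of 20 was used, made of these 3 genes and 17 others, which encode U6 and U6atac small nuclear RNAs, 7SK RNA, the RNase MRP and RNase P RNAs, Y RNAs and vault RNAs. A POLR3A region was at 19 of the 20 under each treatment, the exception being VTRNA2-1, a vault RNA gene. By −log10 q RN7SL1 took place 9 of 19 under vehicle and place 7 under P4, and RN7SL2 took places 12 and 11. BCYRN1 was in place 18 in both lists, above RNY4 alone, a Y RNA gene with values of 16.0 and 28.1. RN7SK, the gene of the 7SK RNA that restrains the elongation factor P-TEFb, led the vehicle list of these genes with 616.5, and VTRNA1-2 led the P4 list with 589.4. By fold enrichment the 7SL genes stood lower than by −log10 q, RN7SL1 in places 13 and 9 and RN7SL2 in places 15 and 14. Against transfer RNA genes, the POLR3A region of RN7SL1 was stronger than that of 219 of the 353 tRNA genes with a region under vehicle and 245 of 351 under P4. RN7SL2 was stronger than 195 and 201 of them, and BCYRN1 stronger than 84 and 94.

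**Figure D1:**
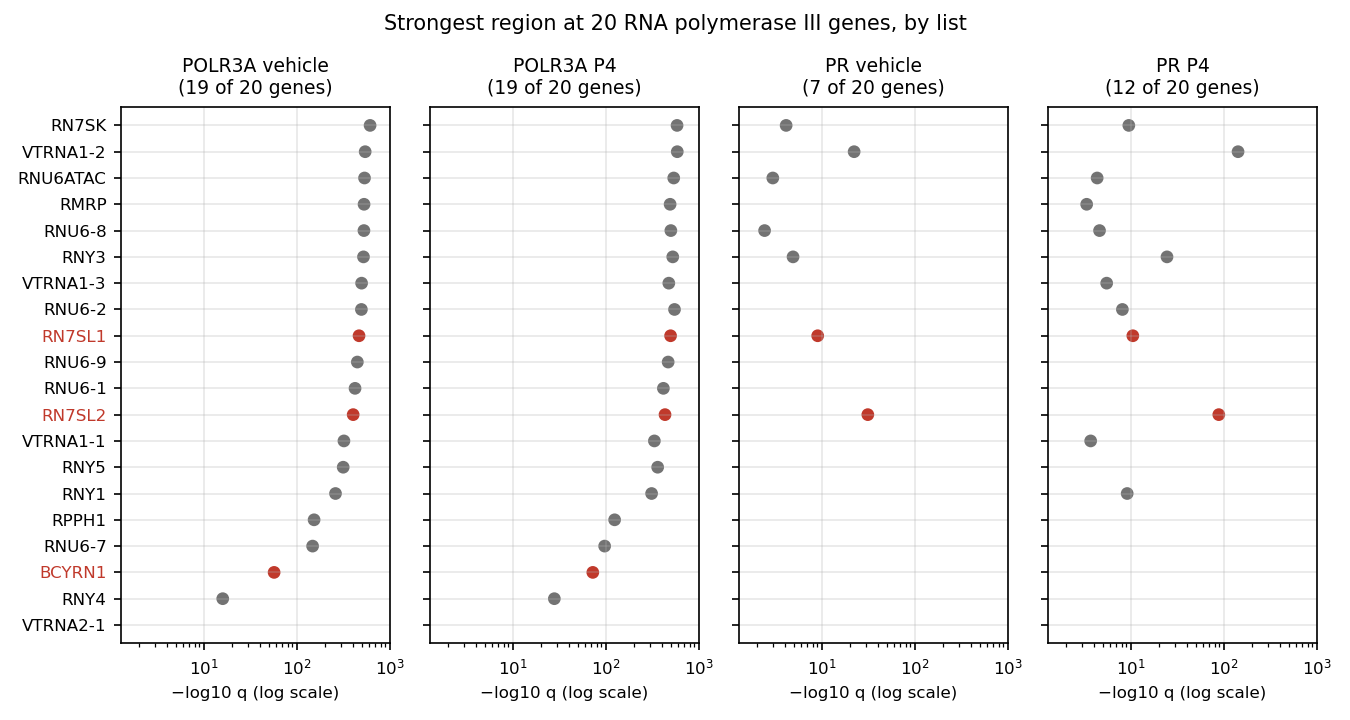
The −log10 q (log scale) of the strongest region at each of 20 RNA polymerase III genes, 1 panel per list, with RN7SL1, RN7SL2 and BCYRN1 in red and genes in the order of the POLR3A vehicle list. A gene without a point had no region there, and in the PR panels RN7SL2 stands at 31.4 and 88.7 and BCYRN1 is absent.

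The PR regions at the 7SL genes were weaker within their lists than the POLR3A regions. At RN7SL1 the PR region had a −log10 q of 9.06 and a 4.82-fold enrichment under vehicle, and 10.5 and 5.00-fold under P4. It lay at percentile 65.2 of the PR vehicle list and 73.8 of the PR P4 list. At RN7SL2 the PR region had 31.4 with an 8.87-fold enrichment under vehicle, percentile 87.3, and 88.7 with a 16.8-fold enrichment under P4, percentile 95.4. RN7SL2 was thus above RN7SL1 for PR in both lists, the reverse of their order for POLR3A. The PR summits of RN7SL2 lay outside the gene, however, by 257 bp under vehicle and 235 bp under P4, and those of RN7SL1 inside it.

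The PR vehicle list had a region at 7 of the 20 RNA polymerase III genes and the PR P4 list at 12. RN7SL2 had the highest −log10 q of the 7 under vehicle, above VTRNA1-2 with 22.3, and RN7SL1 was in place 3. The RN7SL2 vehicle region lay within 100 bp of the gene without touching it. Under P4, VTRNA1-2 led with 142.8, RN7SL2 followed, and RN7SL1 was in place 4, below RNY3 with 24.6. Of the tRNA genes with a PR region, 7 of 55 had a stronger one than RN7SL2 under vehicle and 8 of 112 under P4. For RN7SL1 these counts were 10 and 32. The nearest PR region to BCYRN1 was 29789 bp away under vehicle, with a −log10 q of 5.64, and 3185 bp away under P4, with a −log10 q of 2.30. The median distance to the nearest PR region over the 10519 genes of at most 500 bp was 38.4 kb under vehicle and 12.0 kb under P4.

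The POLR3A regions of the 7SL genes were wide. At RN7SL1 the region covered 1048 bp under vehicle (chr14:49586008-49587055) and 1160 bp under P4 (chr14:49585894-49587053), and at RN7SL2 1292 bp (chr14:49862012-49863303) and 1196 bp (chr14:49862047-49863242). The median width was 280 and 276 bp over all regions of these lists and 748 and 792.5 bp at the 16 other RNA polymerase III genes with a region. RN7SL2 had the widest region of the 19 genes under vehicle. The region of BCYRN1 was narrower, 581 bp under vehicle (chr2:47335128-47335708) and 532 bp under P4 (chr2:47335170-47335701). All 6 POLR3A regions covered the whole gene. Around RN7SL1 the region reached further on the low side, 572 bp below the gene and 177 bp above it under vehicle and 686 and 175 bp under P4. Around RN7SL2 it reached 539 bp below and 454 bp above under vehicle, and 504 and 393 bp under P4, and around BCYRN1 187 and 194 bp, and 145 and 187 bp.

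All 6 POLR3A summits lay inside the genes. At RN7SL1 the summit was 31 bp from the low end of the gene under vehicle and 50 bp from it under P4. At BCYRN1 it was 59 and 27 bp from the low end. At RN7SL2 the summit lay nearer the other end, 193 and 177 bp from the low end of its 299 bp. As a distance from the gene's midpoint these are 118 and 99 bp for RN7SL1, 44 and 28 bp for RN7SL2, and 40.5 and 72.5 bp for BCYRN1. At the 16 other genes the median distance was 19 bp under vehicle and 12.25 bp under P4, and the highest 123.5 and 105.5 bp. Vehicle and P4 summits of POLR3A were 19 bp apart at RN7SL1, 16 bp at RN7SL2 and 32 bp at BCYRN1, within the range of 2 to 49 bp at the other 16 genes.

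The PR summits differed between the 7SL genes. At RN7SL1 they lay inside the gene, 40 bp above its midpoint under vehicle and 26 bp above it under P4. At RN7SL2 they lay outside the gene, 257 bp above its high end under vehicle and 235 bp above it under P4. The RN7SL2 vehicle region itself (chr14:49862916-49863234) did not touch the gene, from which 66 bp separated it, whereas the P4 region (chr14:49862538-49863453) covered the whole gene. Counting only regions that touch the gene body, PR was at 1 of the 3 genes under vehicle. Counting only summits within 100 bp of the gene, it was at 1 of the 3, RN7SL1, under each treatment.

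PR and POLR3A summits were 158 bp apart at RN7SL1 under vehicle and 125 bp apart under P4. At RN7SL2 they were 362 and 356 bp apart. At the other RNA polymerase III genes with both factors the median was 196 bp under vehicle (5 genes, 79 to 231 bp) and 94.5 bp under P4 (10 genes, 15 to 495 bp). At tRNA genes it was 190 bp (55 genes, 3 to 1346 bp) and 249 bp (111 genes, 1 to 2017 bp). The distance at RN7SL2 under vehicle was thus longer than at any of the 5 other genes but within the range of the tRNA genes. Under P4 it lay within the range of both sets. All 4 PR summits lay inside the POLR3A region of the same treatment. So did those of the other RNA polymerase III genes with both factors, except RMRP and RNY3 under P4. This position was therefore not particular to the genes studied here. The PR summits of the vehicle and P4 lists were 14 bp apart at RN7SL1 and 22 bp apart at RN7SL2, against a median of 146 bp over the 47 tRNA genes with PR in both lists and 26 bp over 5 other RNA polymerase III genes.

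**Figure D2:**
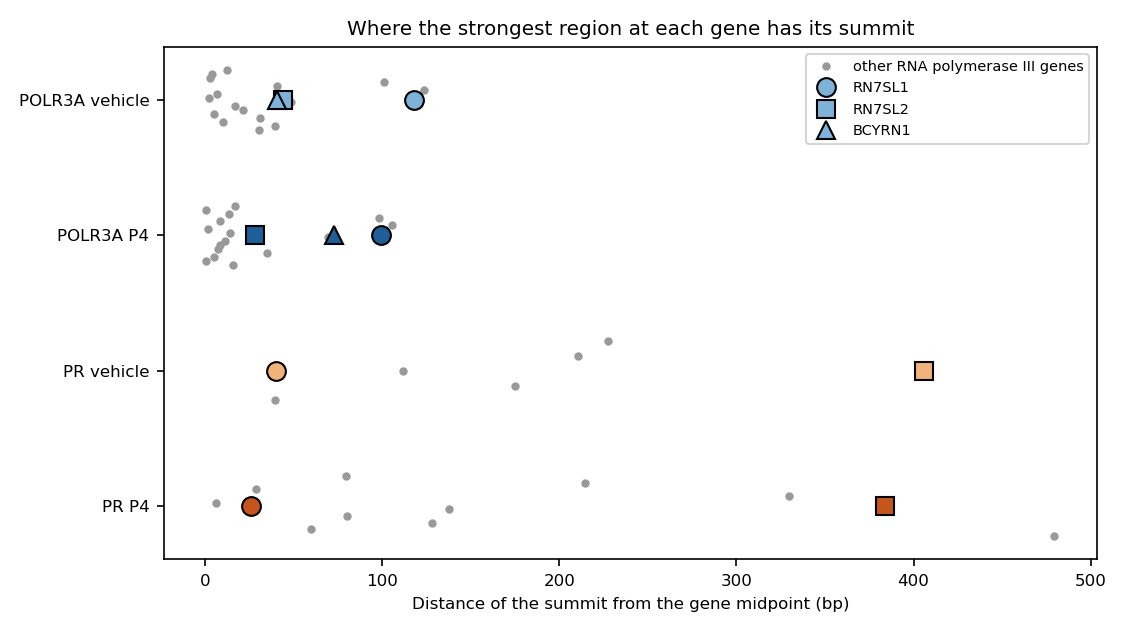
Distance of the summit of the strongest region from the midpoint of the gene (bp), by list, for RN7SL1 (circles), RN7SL2 (squares), BCYRN1 (triangles) and the other RNA polymerase III genes (grey points, spread vertically for sight). The POLR3A summits of the 3 genes lie between 28 and 118 bp, and the PR summits of RN7SL2 at 406 and 384 bp.

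Within 5 kb of the genes, the surroundings of the 7SL genes held several PR regions and those of BCYRN1 few. RN7SL1 had 3 PR regions there under vehicle and 5 under P4, beside 1 and 4 for POLR3A. RN7SL2 had 4 and 6 for PR and 2 and 3 for POLR3A. BCYRN1 had 0 and 2 for PR and 1 for POLR3A under each treatment. Under vehicle, 2.68% of the genes of at most 500 bp had 3 or more PR regions, the count of RN7SL1, and 1.27% had 4 or more, the count of RN7SL2. Under P4, 3.55% of these genes had 5 or more, the count of RN7SL1, and 2.02% had 6 or more, the count of RN7SL2. Of the 429 tRNA genes, 9.56% had 3 or more and 2.80% had 4 or more under vehicle, and under P4 9.32% had 5 or more and 2.33% had 6 or more. The 17 other RNA polymerase III genes had at most 2 PR regions under vehicle and at most 4 under P4. POLR3A regions under P4 numbered 4 or more, as at RN7SL1, at 3.41% of genes of at most 500 bp and 16.1% of tRNA genes. They numbered 3 or more, as at RN7SL2, at 5.83% and 32.4%. With regions of a −log10 q of at least 5 alone, the PR counts were 2 and 2 at RN7SL1, 4 and 3 at RN7SL2 and 0 and 1 at BCYRN1, under vehicle and P4. The shares above are those of the unfiltered lists, and shares under this limit are not given here.

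The PR regions around RN7SL2 lay on both sides of the gene and at like positions under both treatments. Their vehicle summits were at −666, 406, 1529 and 2867 bp from the gene's midpoint, negative values lying below it. Each of these 4 regions overlapped a P4 region, with summits 46, 22, 41 and 135 bp apart, and over the whole list 75.7% of vehicle PR regions overlapped a P4 region. The P4 list added 2 regions near the upper edge of the window, with −log10 q of 4.59 and 2.75. Among the flanking regions the one 1570 bp above the midpoint stood out under P4, with a −log10 q of 34.1 and a 9.29-fold enrichment, and its vehicle counterpart had 6.53 and 4.13-fold.

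Around RN7SL1 all PR regions outside the gene lay on the low side. The vehicle list had 2, with summits at −723 and −2239 bp from the midpoint and −log10 q of 5.63 and 1.61. Under P4 the first of these and the region at the gene were 1 region of 1076 bp (chr14:49585840-49586915). The 4 flanking P4 regions of PR had −log10 q between 2.28 and 5.39. The 3 flanking POLR3A regions of the P4 list, with −log10 q of 2.42, 3.43 and 1.56, each overlapped one of them, while over the whole list 50.5% of POLR3A regions overlapped a PR region under P4. These scores are close to the limit of the lists, and none of the 3 had a counterpart in the POLR3A vehicle list. At BCYRN1 the 2 PR regions of the P4 list lay 3185 and 4579 bp above the gene, with −log10 q of 2.30 and 12.4, and neither overlapped a POLR3A region.

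**Figure D3:**
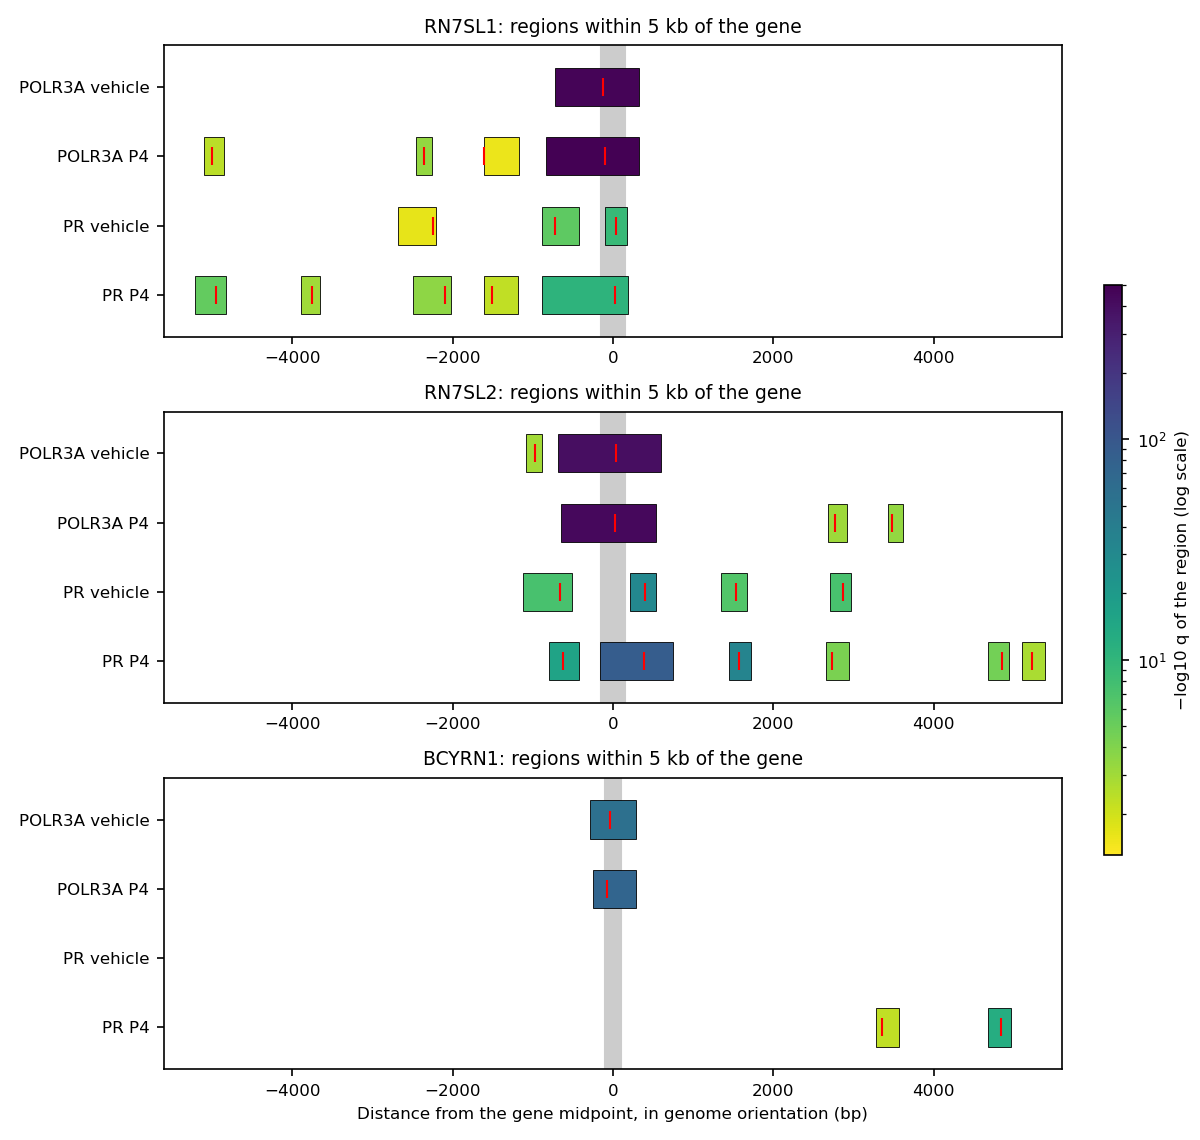
Regions of the 4 lists within 5 kb of RN7SL1, RN7SL2 and BCYRN1, against distance from the gene midpoint in genome orientation (bp), coloured by −log10 q on a log scale, with the gene in grey and summits as red marks. POLR3A covers each gene under both treatments, PR lies beside RN7SL2 on both sides, and BCYRN1 has PR regions under P4 alone, 3185 bp or more away.

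The genome carries many further copies of the 7SL gene, nearly all of them pseudogenes. The table holds 682 on chromosomes 1 to 22 and X besides RN7SL1 and RN7SL2, with a median length of 293 bp. A POLR3A region was at 20 of them under vehicle, 2.93% (95% Wilson interval 1.91 to 4.49), and at 26 under P4, 3.81% (2.61 to 5.53), beside the 4.04% and 4.71% of genes of 150 to 350 bp, among which most of these copies are counted too. PR was at 10 copies under vehicle, 1.47% (0.798 to 2.68), and at 35 under P4, 5.13% (3.71 to 7.05), against 2.82% and 6.35%. These intervals cover counting error over genes only. In all, 618 of the 682 copies had no region in any list and 2 were in all 4. A region of any list was at 9.38% of the copies and at 9.38% of genes of 150 to 350 bp. The shares in all 4 lists were 0.293% and 1.72%. The median −log10 q at the copies was 3.85 and 3.04 for POLR3A, against 405.5 or more at RN7SL1 and RN7SL2. The unknown placement of reads that fit several copies applies to these values, and to the copies without a region, as well.

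**Figure D4:**
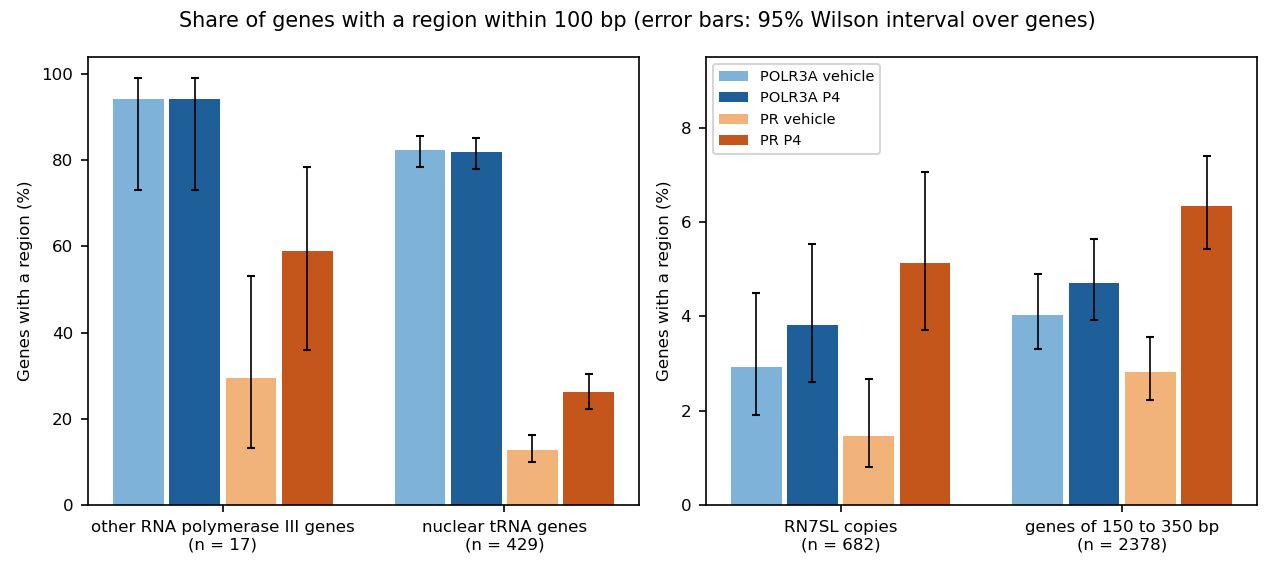
Percentage of genes with a region in each list, for 17 other RNA polymerase III genes and 429 tRNA genes (left) and for 682 RN7SL copies and 2378 genes of 150 to 350 bp (right, on a shorter axis). Error bars are 95% Wilson intervals over genes, and the RN7SL copies stand between 1.47% and 5.13%.

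Strong POLR3A regions were found at 3 of these copies, and in both treatments. RN7SL5P on chromosome 9 (9441998 to 9442310, within the span of PTPRD) had a −log10 q of 150.7 with a 33.2-fold enrichment under vehicle and 112.8 with 24.2-fold under P4. RN7SL4P on chromosome 3 (15738515 to 15738786, within the span of ANKRD28) had 78.7 with 16.4-fold and 51.1 with 12.2-fold. RN7SL3 on chromosome 14 (49853616 to 49853914), which RefSeq lists as a gene and not as a pseudogene, had 28.4 with 9.97-fold and 22.9 with 7.76-fold. RN7SL3 lies 8637 bp below RN7SL2 and 828 bp above NEMF. Under vehicle RN7SL5P and RN7SL4P thus scored above BCYRN1 in the POLR3A list, and under P4 RN7SL5P alone did. All 3 had the summit inside the copy, 39 and 46 bp from the midpoint at RN7SL5P, 33.5 and 35.5 bp at RN7SL4P, and 123 and 126 bp at RN7SL3. No other copy reached a −log10 q of 10 in a POLR3A list. The next were RN7SL106P with 6.50 under vehicle and RN7SL381P with 7.75 under P4, both with the summit outside the copy.

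PR was at neither RN7SL4P nor RN7SL5P. At RN7SL3 a PR region was present under P4 alone, with a −log10 q of 11.5 and its summit 297 bp above the midpoint, outside the gene. The copies with the strongest PR regions were others. RN7SL600P on chromosome 1 (150568971 to 150569269) was reached under vehicle by a PR region with a −log10 q of 135.9, whose summit was 839 bp from the midpoint, and its P4 region had 3.55. RN7SL333P, within the span of SCYL3, had 27.2 and 34.7, and RN7SL546P had 11.4 and 30.6. RN7SL473P had 6.10 and 7.09. RN7SL258P had 17.6 under P4 and no PR region under vehicle. RN7SL381P, which like RN7SL600P was in all 4 lists, had 5.17 and 16.4. The P4 summits of RN7SL333P, RN7SL546P, RN7SL258P and RN7SL381P lay outside the copy, 206.5 to 439.5 bp from its midpoint. Those of RN7SL473P lay inside it. At 5 of the 10 copies with PR under vehicle and 11 of the 35 under P4 the summit lay inside the copy.

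**Figure D5:**
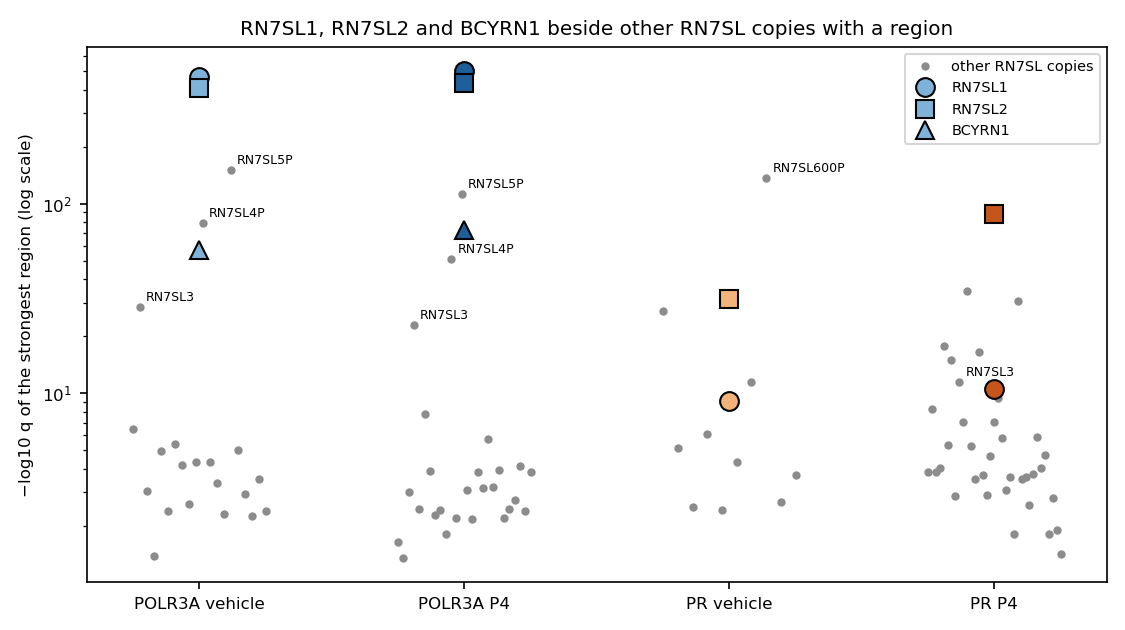
The −log10 q (log scale) of the strongest region at each RN7SL copy that had one (grey points, spread sideways for sight), by list, with RN7SL1, RN7SL2 and BCYRN1 as large symbols. In the POLR3A lists RN7SL5P, RN7SL4P and RN7SL3 stand apart from the other copies, all of which are below 10.

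The proteins that act with 7SL RNA were read at their transcription starts. SRP9 and SRP14 form the dimer that binds the Alu domain of 7SL RNA and also BC200 RNA. SRP19, SRP54, SRP68 and SRP72 bind the other domain of 7SL RNA, where SRP54 holds the signal peptide, and SRPRA and SRPRB form the receptor on the endoplasmic reticulum. The promoter table has starts for 7 of the 8 genes, and SRPRA is not analysed here. Within 1 kb of a start, 5 of the 7 had POLR3A under vehicle and 6 did under P4, whereas 2 and 7 had PR. Over all 15812 protein-coding genes with a start, 30.6% and 32.8% had POLR3A and 22.7% and 48.4% had PR. With so few genes these counts are given as a description.

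The POLR3A scores at these protein genes were far below those at RN7SL1, RN7SL2 and BCYRN1. The highest POLR3A −log10 q was 7.97, at SRP68 under vehicle, and the highest PR value was 25.6, at SRP72 under P4. SRP14 and SRP68 had regions in all 4 lists. At the first of its 2 listed starts, SRP14 had its POLR3A summit 8 bp upstream of the start under vehicle (−log10 q 3.53) and 96 bp downstream of it under P4 (5.63). At SRP9 POLR3A summits were 371 and 438 bp downstream of the start, with 2.39 and 4.90, and PR was present under P4 alone (8.57). With both PR lists limited to their 38933 strongest regions, 4 of the 7 genes had PR under P4, and the part of list length in these counts was not tested further. The share of 48.4% of coding genes belongs to the full P4 list, and the share under this limit is not given here.

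The 250 bases upstream of the start of SRP14 and SRP9 are shown because these are the protein partners that 7SL and BC200 RNA share and POLR3A regions reach both windows under P4. The sequences are those of RefSeq on GRCh38.p14, from 40039203 to 40039452 on the minus strand of chromosome 15 and from 225777576 to 225777825 on the plus strand of chromosome 1. Capitals mark matches to the motifs named after them.
SRP14: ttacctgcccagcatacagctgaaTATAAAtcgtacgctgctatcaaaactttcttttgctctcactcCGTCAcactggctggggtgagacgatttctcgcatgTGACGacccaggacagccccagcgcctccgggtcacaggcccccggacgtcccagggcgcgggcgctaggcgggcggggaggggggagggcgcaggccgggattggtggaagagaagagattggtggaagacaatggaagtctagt
SRP9: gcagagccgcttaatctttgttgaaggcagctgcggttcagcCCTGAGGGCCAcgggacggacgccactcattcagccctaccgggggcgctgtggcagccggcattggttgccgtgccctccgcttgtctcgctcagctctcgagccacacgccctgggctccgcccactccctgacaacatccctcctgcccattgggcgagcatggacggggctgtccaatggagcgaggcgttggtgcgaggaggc

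The motifs were searched on both strands. They were the cyclic AMP response element TGACGTCA and its core TGACG, the TATA box TATAAA, and the progesterone response element with its core TGTTCT. The full progesterone response element was read as ACA and TGT with 3 free bases between them, preceded by G and followed by C, each across 1 free base. Loose forms were used of the A box of RNA polymerase III promoters, TGGC and GG with 5 free bases between, and of the B box, GTTCGANNC. The core TGACG lies within TGACGTCA, so a match to the longer motif is also one to the shorter. The SRP14 window held TGACG at 2 places, beginning at −182 and −146 from the start, and TATAAA at −226. The SRP9 window held 1 match to the loose A box, on the strand opposite to the gene. Among 22132 upstream windows of protein-coding genes, 24.1% held TGACG, 9.00% TATAAA and 24.3% the loose A box. Neither window held TGACGTCA (2.02% of windows), TGTTCT (9.83%), the progesterone response element (0.253%) or the loose B box (0.755%). A match is a description of the letters in the window and not a bound site.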

How the data were processed

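Regions bound by PR and POLR3A were taken from 4 deposited lists, 1 per antibody and treatment. Reads were trimmed with cutadapt, aligned with Bowtie2 and called with MACS2 on hg38, per the submitters' processing notes. Versions, parameters, the control and the pooling of replicates are not given in the sources used here. For every region the authors deposited a −log10 q and a ratio, its fold enrichment. A whole-number score was also deposited by the authors and was not used.

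Regions on chromosomes 1 to 22 and X were read against the RefSeq gene table of GRCh38.p14, from which 679 of 59098 genes were left out because their rows follow the last position of their chromosome and restart at lower positions. A gene had a region when at least 1 bp of it overlapped the gene body or the 100 bp on either side. Percentiles and ranks are by −log10 q within 1 list. No test of a change between treatments was run, because each group has 1 list. Depth is unknown. Intervals are 95% Wilson intervals. The planned distance to the 5′ end of the genes became a distance to the midpoint, since the gene table gives no strand, and the planned motif search was run on SRP14 and SRP9, whose windows the promoter table holds, a choice made with the values known.

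The text names the 3 genes, 17 other RNA polymerase III genes, 8 signal recognition particle protein genes, the nearest coding genes, and the RN7SL copies that are among the 4 strongest of a list or in all 4 lists. The genes, lists and settings were chosen with earlier results of these data known. Python 3.11.15, pandas 2.3.3 and scipy 1.17.1 were used. Counts of RN7SL copies equalled those of bedtools 2.31.1 in 4 of 4 lists, and the overlap code was tested on simulated data with 200 planted genes, of which it found 200.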

Additional observations from a re-analysis of the deposited data

How the results depend on the processing

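Of 156 values under other settings, 104 stayed and 52 moved. Staying meant within 1.5 times the value reported or, for percentiles, within their 95% interval, which does not measure a spread between replicates. Some of the 104 could not move. They include the 10 that took the summit nearest to the midpoint, since each gene had at most 1 region per list. Values of the vehicle lists at equal length could not move either, since these lists kept all their regions. No value exists per replicate, so no replicate could be left out, and no paired analysis was possible because each group has 1 list, with no column for a replicate. The count of the 3 genes with POLR3A was 3 under every setting run. For PR under vehicle it was 1 with a −log10 q of at least 10, with the gene body alone, with at least 50% of the gene covered and when the summit had to lie inside the gene or 100 bp beside it. For PR under P4 it was 1 with that summit rule. RN7SL2 was the gene kept at the −log10 q of at least 10. The number of RN7SL copies was, with a −log10 q of at least 5, 6 and 5 for POLR3A and 5 and 14 for PR, and with at least 10 it was 3 and 3 for POLR3A and 3 and 6 for PR. With lists of equal length the P4 counts were 14 for POLR3A and 8 for PR. With 500 bp on either side they were 40 for POLR3A under P4 and 20 and 56 for PR. With copies of 250 to 350 bp alone, a setting chosen after seeing the data, no count moved by more than 1.5 times. Of the 17 other RNA polymerase III genes, 1 and 6 had PR with a −log10 q of at least 5, and 5 under P4 with lists of equal length. Of the signal recognition particle protein genes, 1 and 2 had POLR3A and 0 and 4 had PR with a −log10 q of at least 5. Under P4 4 had PR with lists of equal length, and 4 had PR under vehicle within 5 kb of a start. Over the 3 genes together, the P4 regions within 5 kb fell to 3 for POLR3A and 6 for PR with a −log10 q of at least 5, and to 4 and 6 within 2 kb. By fold in place of −log10 q, POLR3A percentiles under vehicle were 99.5 for RN7SL1, 99.4 for RN7SL2 and 99.1 for BCYRN1, and that of BCYRN1 under P4 was 99.5. PR percentiles by fold were 68.2 and 74.4 for RN7SL1 and 95.1 for RN7SL2 under P4. The fewer calls at a stricter threshold or in shorter lists follow from the settings themselves, and other causes were not tested. The shares over all genes and other gene sets given earlier belong to the main setting. Those under the other settings are not given here, so these counts cannot be read as high or low.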

Other observations

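RefSeq also lists pseudogenes of BC200 RNA, of which BCYRN1P1 on chromosome X and BCYRN1P3 on chromosome 13 were read after their values had been seen. Neither had a region in any of the 4 lists, while 42.0% of all genes and 9.38% of genes of 150 to 350 bp had one in at least 1 list. The nearest region of any list to BCYRN1P3 was a PR vehicle region 35069 bp away, and the nearest to BCYRN1P1 was a POLR3A P4 region 417591 bp away.

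At RN7SL600P the PR −log10 q was 135.9 under vehicle and 3.55 under P4, and the 2 lists divide the stretch differently. The vehicle region ran from 150567849 to 150569437 and reached the copy. In the P4 list a region with a −log10 q of 247.7 ended at 150568626, 345 bp short of the copy, with its summit at −840 bp from the midpoint, against −839 bp under vehicle. A separate P4 region at the copy itself carried the lower value.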
